A study of Mus musculus with 4 samples.

Results

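The Myc, Max and Mxd network was read as 10 genes, *Myc*, *Mycn*, *Mycl*, *Max*, *Mxd1*, *Mxd3*, *Mxd4*, *Mxi1*, *Mnt* and *Mlx*, matched by symbol among the 17559 genes listed in the files. All 10 were found. The measurements come from 4 RNA-seq libraries of CD8+ T cells with the OT-I transgene, which gives them a T cell receptor for a peptide of ovalbumin, from C57BL/6 mice and tissue labelled LN. Every library came from cells purified to above 95% by negative magnetic selection and cultured for 2 d in IL-2 (10 ng/ml) with plate-bound antibodies to CD3 (1 µg/ml) and to CD28 (2 µg/ml), then for another 2 d in IL-2 alone. The 2 control libraries came from cells given the control treatment, and the 2 NaBu libraries from cells given 1 mM NaBu for 12 h. NaBu commonly stands for sodium butyrate, the salt of a short-chain fatty acid and a known inhibitor of histone deacetylases. No label says that the 2 libraries of a group are from separate cultures or animals. The p-values therefore reflect only how far these libraries spread, and that spread may be technical.

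The network is a set of transcription factors of the basic helix-loop-helix leucine zipper class that share partners. Myc proteins pair with Max, bind the E-box sequence CACGTG and recruit activators of genes for growth, ribosome production and nucleotide synthesis. Mxd proteins and Mnt also pair with Max and bind the same sequence, but recruit the Sin3 and histone deacetylase corepressor. Mlx stands in for Max in a parallel branch, where it pairs with the Mondo proteins that respond to glucose metabolites and with some of the Mxd proteins. In CD8+ T cells, Myc is known to be induced by the T cell receptor and IL-2 and to drive the metabolic programme of clonal expansion.

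Each library held between 19857701 and 20548571 expected counts. The 9 T cell marker genes found of 10 listed summed to an FPKM of 2990 and 2864 in control cells and 2792 and 2819 with NaBu, of which *Thy1* alone made up 1030 and 1085 on average. Of the 9, 7 were called lower (77.8%) and 1 higher (11.1%), against 34.1% and 34.5% of all tested genes. Their median log2 fold change was -0.5, against 0.005 over all tested genes. *Cd3d* fell 1.67-fold and *Cd8b1* 1.49-fold. FPKM scales fragment numbers to transcript length and library depth. Of 20 markers of other lineages, 15 were found and 8 of these stayed below an FPKM of 1 in every library. The 15 summed to 22.6 and 19.7 in control cells and 26.7 and 26.2 with NaBu. Of their 9 tested genes, 5 were called higher (55.6%) and 3 lower (33.3%), against 34.5% and 34.1% of all tested genes. *Cd4*, *Foxp3*, *H2-Aa* and *Hba-a1* passed the filter on low counts through their NaBu libraries alone, which favours a rise. Of the other 5 tested genes, 2 were called higher and 3 lower. *Itgam*, a myeloid integrin gene, rose from 0.45 in both controls to 4.83 and 3.79, *Itgax* from 2.24 and 2.42 to 4.24 and 4.66, *Hba-a1* from 1 and 0.81 to 6.59 and 7.24, *H2-Aa* from 0.05 and 0.27 to 1.46 and 1.13 and *Cd4* from 0.02 and 0.03 to 0.66 and 0.65, in FPKM. *Cd79b*, *Xcr1* and *Klrb1c* fell 2.32-fold, 2.72-fold and 2-fold, and the macrophage marker *Adgre1* stayed at or below 0.02. The part of other cells in the results below was not tested.

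With NaBu, 6 of the 10 genes were called higher and 3 lower at a Benjamini-Hochberg adjusted p of 0.05 in edgeR's quasi-likelihood test, and *Mxd4* did not pass. This share has to be read against the whole table, since 68.6% of the 12943 tested genes were called, 34.5% higher and 34.1% lower. *Mycl* passed the filter on low counts through its NaBu libraries alone, which favours a rise. The FPKM values of the groups did not overlap for 9 of the 10 genes, against 84.0% of all tested genes. With 1.5-fold as the null, *Myc*, *Max*, *Mxd1*, *Mxd3*, *Mycn* and *Mnt* passed edgeR's glmTreat, 6 of 10 against 29.2% of all tested genes. In these bulk samples fewer cells of a type and less RNA per cell cannot be told apart. Fold changes below are from the fit scaled by trimmed mean of M values (TMM), and errors of log2 fold changes are standard errors.

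**Figure D1:**
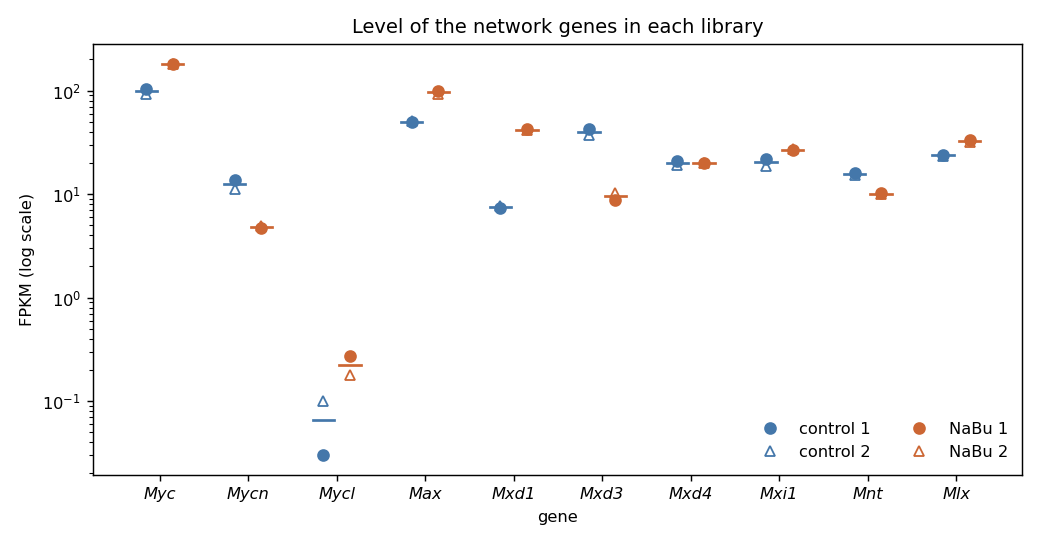
FPKM (log axis) of each network gene in each of the 4 libraries, with control 1 and NaBu 1 as filled circles, control 2 and NaBu 2 as open triangles, and the group mean as a bar. The 2 libraries of a group lie close together except for *Mycl*, which stays below an FPKM of 0.3, and the control and NaBu values change places between *Mxd1* and *Mxd3*.

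Among the Myc genes, the one that already dominated rose and its relative fell. *Myc* (gene 17869, mm10 chromosome 15, 61985341 to 61990361), the broadly expressed member, had an FPKM of 104.7 and 93.3 in control cells and 182.4 and 179.2 with NaBu. Both NaBu libraries lay well above both controls, a 1.71-fold rise with a log2 fold change of 0.77 ± 0.07 (edgeR adjusted p = 3.2e-06). By mean FPKM *Myc* moved from rank 762 to rank 347 among all listed genes.

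*Mycn* (gene 18109, chromosome 12, 12936093 to 12941836), the member best known from neural and embryonic tissue, had an FPKM of 13.6 and 11.2 in control cells and 4.71 and 4.93 with NaBu. It fell 2.75-fold, with a log2 fold change of -1.46 ± 0.11 (edgeR adjusted p = 1.03e-06), and the groups did not overlap. The level of *Myc* was 7.69 and 8.37 times that of *Mycn* in the controls and 38.7 and 36.4 times in the NaBu libraries, on FPKM. *Mycl* (gene 16918, chromosome 4, 122995588 to 123002490), the third family gene, was close to silent, with 2 and 7 expected counts in the controls and 18 and 12 in NaBu. Exact 95% binomial intervals on these counts, which cover counting error only, overlapped between control 2 (0.137 to 0.702 CPM) and either NaBu library (0.537 to 1.43 and 0.312 to 1.06). Its log2 fold change of 1.66 ± 0.55 (edgeR adjusted p = 0.0197) was 2.77 without control 2, and its call was lost with DESeq2 (adjusted p = 0.117), without control 1 (edgeR adjusted p = 0.145) and without NaBu 1 (edgeR adjusted p = 0.156).

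The genes whose profile lay nearest to that of *Myc* were named by the Euclidean distance of log2(FPKM + 1) over the 4 libraries, among all tested genes. They were *Il12rb1* (distance 0.031), encoding the beta 1 chain of the IL-12 receptor, *Prdx5* (0.077), a peroxiredoxin gene, and *Il12rb2* (0.154), encoding the beta 2 chain of that receptor. The FPKM of *Il12rb1* was 105.9 and 94.5 in control cells and 180.1 and 179.8 with NaBu, so level and change were both like those of *Myc*. With 4 libraries in 2 groups, such likeness is a description of level and direction only.

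*Max* (gene 17187, chromosome 12, 76937269 to 76962323), the shared partner, had an FPKM of 49.5 and 50.4 in control cells and 98.6 and 93.3 with NaBu. It rose 1.79-fold (log2 fold change 0.84 ± 0.06, edgeR adjusted p = 6.06e-07), and the NaBu libraries lay far above the narrow range of the controls. The ratio of *Myc* to *Max*, on FPKM, was 2.12 and 1.85 in control cells and 1.85 and 1.92 with NaBu, so the groups overlapped. *Mlx* (gene 21428, chromosome 11, 101086707 to 101092207), the partner in the parallel branch, went from an FPKM of 23.9 and 23.4 to 33.6 and 32.0. That is a smaller rise, 1.3-fold, with a log2 fold change of 0.37 ± 0.07 (edgeR adjusted p = 0.000602), and it fell short of the 1.5-fold null (glmTreat adjusted p = 1.0). *Mlx* overlaps *Psmc3ip* on the opposite strand, and the sources used here do not give the strandedness of the libraries. *Psmc3ip* fell 2.26-fold, with a mean FPKM of 10.3 in the controls and 4.87 in NaBu.

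**Figure D2:**
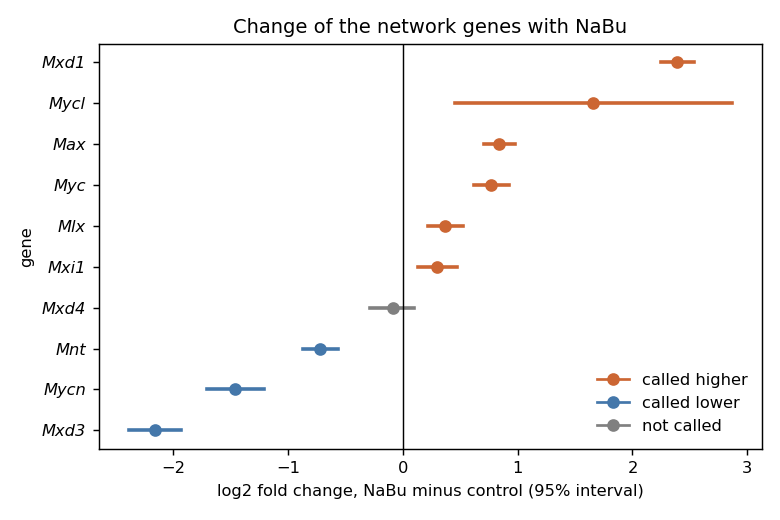
Log2 fold change of each network gene, NaBu minus control, with its 95% interval from the edgeR fit, ordered by size and coloured by the call. *Mxd1* and *Mxd3* stand at opposite ends at 2.39 and -2.16, and the interval of *Mxd4* includes 0.

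The repressor side of the network changed its make-up. *Mxd1* (gene 17119, chromosome 6, 86647044 to 86669234), the repressor known to appear as cells leave the cycle and differentiate, had an FPKM of 7.29 and 7.67 in control cells and 42.7 and 41.3 with NaBu. It was the network gene with the largest change, 5.25-fold higher, with a log2 fold change of 2.39 ± 0.06 (edgeR adjusted p = 1.61e-09), and 93.9% of tested genes changed less. *Mxd3* (gene 17121, chromosome 13, 55325170 to 55329900), the relative known from cells in S phase, showed the opposite. Its FPKM was 42.1 and 37.4 in control cells and 8.73 and 10.2 with NaBu. It fell 4.48-fold, with a log2 fold change of -2.16 ± 0.1 (edgeR adjusted p = 3.46e-08), and the highest NaBu value was far under the lowest control value. The level that *Mxd3* held in the controls was thus close to the level that *Mxd1* reached in NaBu. The ratio of *Mxd1* to *Mxd3*, on FPKM, was 0.173 and 0.205 in control cells and 4.89 and 4.04 with NaBu.

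In the same libraries *Mki67*, the gene of the proliferation marker Ki-67, fell 5.82-fold, with a mean FPKM of 108.1 in the controls and 19.8 in NaBu, and the part of cell cycle phase in the falls of *Mxd3* and *Mycn* was not tested. *Mxd3* overlaps *Prelid1*, a mitochondrial protein gene on the opposite strand with a far higher level. *Prelid1* had a mean FPKM of 603.1 in the controls and 494.4 in NaBu and fell 1.3-fold. The expected counts of *Mxd3* were not whole numbers (for example 1101.43 in control 1), so some of its reads had been assigned in part.

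The promoters of *Mxd1*, *Mxd3* and *Mycn*, the members with the largest changes beside the nearly silent *Mycl*, are shown to set their letters side by side. They are RefSeq sequences of GRCm38.p6 (mm10), taken over the 250 bases before the start site, and capitals mark the GC box GGGCGG on either strand and, in *Mycn*, also the E2F motif TTTGGCGC. The *Mxd1* stretch is chr6:86669160-86669409, that of *Mxd3* chr13:55329732-55329981 and that of *Mycn* chr12:12941837-12942086, all on the minus strand.
Mxd1: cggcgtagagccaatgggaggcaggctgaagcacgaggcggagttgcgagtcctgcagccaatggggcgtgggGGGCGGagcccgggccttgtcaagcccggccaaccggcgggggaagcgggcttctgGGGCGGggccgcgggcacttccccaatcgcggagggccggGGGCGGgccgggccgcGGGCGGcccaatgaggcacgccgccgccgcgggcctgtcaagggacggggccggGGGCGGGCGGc
Mxd3: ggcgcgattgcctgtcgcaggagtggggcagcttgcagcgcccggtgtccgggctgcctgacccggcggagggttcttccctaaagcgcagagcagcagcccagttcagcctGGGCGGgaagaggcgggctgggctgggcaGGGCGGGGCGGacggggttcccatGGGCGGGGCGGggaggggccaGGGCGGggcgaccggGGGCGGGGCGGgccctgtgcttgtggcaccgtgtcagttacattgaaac
Mycn: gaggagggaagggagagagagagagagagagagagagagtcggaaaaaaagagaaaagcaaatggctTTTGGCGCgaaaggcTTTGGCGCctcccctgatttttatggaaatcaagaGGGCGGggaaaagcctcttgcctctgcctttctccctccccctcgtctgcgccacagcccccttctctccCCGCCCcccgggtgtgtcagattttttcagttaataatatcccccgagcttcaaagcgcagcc
Matches were sought on both strands, with overlapping matches counted, in 300 bases from 250 before to 50 after the start. *Mxd1*, which rose, held 6 GC boxes, and *Mxd3* and *Mycn*, which fell, held 8 and 2. A relation of the motif to the direction of change was not tested. At least 1 GC box was found in 7 of the 9 members matched to the table, which are all but *Myc*, against 35.7% of 32851 promoters and 61.7% of those of tested genes. The 9 members had 11 promoters, and a member was counted if any of its promoters matched, while the shares are per promoter. The pair of E2F matches lay 183 and 168 bases before the start of *Mycn*. TTTCCCGC or TTTGGCGC was found in none of the other 8 members searched, in 1.56% of all promoters and in 2.93% of those of tested genes. These matches describe letters and not binding.

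The other Mxd genes moved little. *Mxi1* (gene 17859, chromosome 19, 53310128 to 53373293), also called Mxd2, had an FPKM of 22.0 and 18.8 in control cells and 26.7 and 27.0 with NaBu. Both NaBu libraries lay above both controls, which differed more from each other than the NaBu libraries did. The rise of 1.23-fold, with a log2 fold change of 0.3 ± 0.08 (edgeR adjusted p = 0.00487), had a log2 value of 0.18 without control 2, and its call was lost without NaBu 1 (edgeR adjusted p = 0.0524), without NaBu 2 (edgeR adjusted p = 0.0717) and against the 1.5-fold null (glmTreat adjusted p = 1.0). *Mxd4* (gene 17122, chromosome 5, 34176580 to 34187710), a repressor linked to differentiated cells, had an FPKM of 21.1 and 19.0 in control cells and 20.1 and 20.2 with NaBu. Both NaBu values lay between the controls. The fold of NaBu over control had a 95% interval from 0.82 to 1.08 (edgeR adjusted p = 0.378), and the sign of its log2 value of -0.09 turned to 0.01 on library totals.

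*Mnt* (gene 17428, chromosome 11, 74830806 to 74845725), the constitutive Max-binding repressor, had an FPKM of 15.8 and 15.1 in control cells and 10.1 and 9.97 with NaBu. It fell 1.65-fold, with a log2 fold change of -0.72 ± 0.07 (edgeR adjusted p = 4.11e-06), and the groups did not overlap. With the trend of fold change on GC content removed, its log2 fold change was -1.35 (edgeR adjusted p = 2.4e-08). At a GC content of 59.5% its longest transcript was the most GC-rich of the 10 genes.

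**Figure D3:**
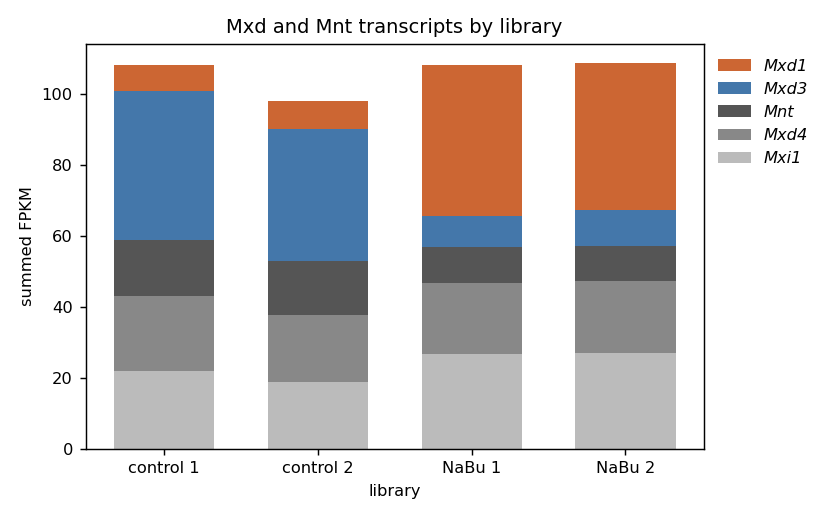
Summed FPKM of *Mxd1*, *Mxd3*, *Mnt*, *Mxd4* and *Mxi1* in each library, as bars stacked by gene from 0. The bars reach 108.3 and 98.0 in control cells and 108.4 and 108.7 with NaBu, while the *Mxd1* part is wide and the *Mxd3* part thin in NaBu.

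Summed over the 5 repressors, the level per length hardly moved, while its parts did. The FPKM of *Mxd1*, *Mxd3*, *Mxd4*, *Mxi1* and *Mnt* together was 108.3 and 98.0 in control cells and 108.4 and 108.7 with NaBu. NaBu over control was 1.05, and the distance between the group means was less than the SD of the controls (103.2 ± 7.33 against 108.6 ± 0.255, SD, n = 2 per group). *Mxd3* made up 38.9% and 38.1% of this sum in the controls and 8.06% and 9.42% in NaBu. *Mxd1* went the other way, from 6.73% and 7.83% to 39.4% and 38.0%. *Mxd4* held a steady share, from 18.5% to 19.5% in all 4 libraries, and that of *Mnt* went from 14.6% and 15.4% to 9.36% and 9.17%.

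The sum of the Myc genes rose against this. *Myc*, *Mycn* and *Mycl* together had an FPKM of 118.4 and 104.6 in control cells and 187.4 and 184.3 with NaBu, and *Myc* made up 88.5% and 89.2% of it in the controls and 97.3% and 97.2% in NaBu. The ratio of the Myc genes to the 5 repressors was 1.09 and 1.07 in control cells and 1.73 and 1.7 with NaBu. On TMM-scaled counts per library without division by length (CPM), which weight long transcripts such as that of *Mxd1* more, the same ratio was 0.954 and 0.925 against 1.07 and 1.06. The groups did not overlap on either scale, but the fold between them went from 1.58 on FPKM to 1.14 on CPM. The ratio of the 5 repressors to *Max*, on FPKM, fell from 2.19 and 1.94 to 1.1 and 1.17, with the rise of *Max*. On TMM-scaled CPM it fell less, from 3.07 and 2.74 to 2.16 and 2.26. Against *Mxd1* alone the ratio of *Myc* fell, on FPKM, from 14.36 and 12.17 to 4.272 and 4.335. With 2 libraries per group the smallest two-sided p of an exact permutation test is 0.33, so these sums and ratios carry no test.

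Perfect E-boxes were found in 4 of the 9 members matched to the promoter table, against 7.15% of all promoters and 9.78% of those of tested genes. Here too members were counted by gene, while the shares are per promoter. They are shown because CACGTG is the sequence that the network proteins themselves bind. Each line gives 30 bases with the E-box in capitals. The stretches are chr12:76962234-76962263 (minus strand) for *Max*, chr11:101087238-101087267 (plus strand) for *Mlx*, chr11:74830789-74830818 (plus strand) for *Mnt* and chr5:34187912-34187941 (minus strand) for *Mxd4*.
Max: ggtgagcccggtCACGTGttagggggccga
Mlx: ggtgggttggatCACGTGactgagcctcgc
Mnt: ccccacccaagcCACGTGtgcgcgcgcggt
Mxd4: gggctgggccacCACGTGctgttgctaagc
The first letter lay 3, 40, 123 and 219 bases before the start of *Max*, *Mlx*, *Mnt* and *Mxd4*. Of these genes *Max* and *Mlx* rose, *Mnt* fell and *Mxd4* did not pass the test. A relation of the E-box to these outcomes was not tested.

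Of 4 further partner genes of the network, 2 rose (50%) and 2 did not pass the test, against 34.5% higher and 34.1% lower over all tested genes. Of the 3 that passed the filter on low counts through both groups, 1 rose. *Mlxipl*, encoding the glucose-responsive factor ChREBP that pairs with Mlx, had 5.01 and 4.0 expected counts in the controls and 212.0 and 225.0 in NaBu. It rose 45.5-fold (95% interval 31.3 to 66.3, edgeR adjusted p = 2.19e-08) to an FPKM of 2.9 and 3.08, still a low level. Like *Mycl*, it passed the filter on low counts through its NaBu libraries alone, which favours a rise. *Mlxip*, encoding the related MondoA, was the more abundant partner, at an FPKM of 17.7 and 15.5 in control cells and 24.6 and 25.6 with NaBu, and rose 1.41-fold (edgeR adjusted p = 9.12e-05). *Mga*, encoding a large Max-binding repressor, had an FPKM of 7.64 and 7.83 against 7.44 and 8.01, and did not pass (edgeR adjusted p = 0.186). *Zbtb17*, encoding the Myc partner Miz-1, had 10.7 and 9.51 against 10.1 and 8.47 and did not pass (edgeR adjusted p = 0.0752). Without control 2 and without NaBu 1 it was called lower (edgeR adjusted p = 0.0365 and 0.0496), as it was with the GC trend removed, where its log2 fold change went from -0.22 to -0.78 (edgeR adjusted p = 3.69e-05).

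Of 9 tested genes of the Mlx and Mondo target list (11 listed), 4 rose (44.4%) and 3 fell (33.3%), against 34.5% and 34.1% of all tested genes. Their median log2 fold change was 0.16, against 0.005 over all tested genes. *Txnip*, encoding an inhibitor of glucose uptake and the best known target of MondoA, had an FPKM of 208.7 and 196.3 in control cells and 779.8 and 702.15 with NaBu, a 3.42-fold rise (edgeR adjusted p = 1.86e-08). *Arrdc4*, its relative, rose 2.84-fold from 1.84 and 2.25 to 6.08 and 4.94. Of the other genes above an FPKM of 5, *Pfkfb3*, a regulator of glycolysis, rose 1.73-fold, while *Fasn*, fatty acid synthase, fell 2.37-fold and *Tkt*, transketolase of the pentose phosphate pathway, fell 2.1-fold.

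The proteins of the Sin3 complex and its partner corepressors carry the repression by Mxd and Mnt. Of their 18 tested genes, 6 rose (33.3%) and 11 fell (61.1%), against 34.5% and 34.1% of all tested genes, with a median log2 fold change of -0.39. *Hdac1*, a deacetylase subunit of the Sin3 complex, had the largest rise of the list, with an FPKM of 98.0 and 99.4 in control cells and 245.9 and 229.0 with NaBu, a 2.25-fold rise (edgeR adjusted p = 8.12e-08). *Sap18*, *Arid4b* and *Suds3*, other Sin3 complex genes, rose 1.38-fold, 1.33-fold and 1.26-fold. *Brms1l* and *Rbbp7*, a histone-binding subunit, fell 2.24-fold and 2.22-fold, and *Ing1*, *Sap30* and *Sap130* fell 1.51-fold, 1.51-fold and 1.46-fold. The scaffold gene *Sin3a*, named outside the rule, fell 1.3-fold, from 27.2 and 29.4 to 23.9 and 22.8. With the GC trend removed, 4 of the list were called higher and 13 lower, against 4336 higher and 4556 lower of 12397 genes.

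Of 15 genes of Myc cofactors, which carry its activation, 4 rose (26.7%) and 9 fell (60%), against 34.5% and 34.1% of all tested genes, and the median log2 fold change was -0.36. *Actl6a* and *Ruvbl1*, shared subunits of chromatin remodelling and acetyltransferase complexes, fell 2.22-fold and 1.9-fold. *Crebbp*, encoding the acetyltransferase CBP, fell 2.02-fold, *Smarcb1*, a SWI/SNF subunit, 1.53-fold, and *Kat5*, encoding TIP60, 1.51-fold. The higher genes changed less: *Ccnt1* and *Cdk9*, which form the elongation kinase P-TEFb, rose 1.26-fold and 1.24-fold. *Paf1* had a log2 fold change of 0.21 and *Ep300* of 0.16, and both calls were lost without NaBu 1 (edgeR adjusted p = 0.157 and 0.129) and without NaBu 2 (0.107 and 0.304). That of *Ep300* was also lost without control 2 (edgeR adjusted p = 0.069). With the GC trend removed, 2 were called higher and 11 lower, against 4336 higher and 4556 lower of 12397 genes.

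Of 20 genes that set the turnover and phosphorylation of Myc protein, 4 rose (20%) and 11 fell (55%), against 34.5% and 34.1% of all tested genes, and the median log2 fold change was -0.23. *Fbxw7*, encoding the ubiquitin ligase subunit that marks phosphorylated Myc for destruction, had an FPKM of 8.61 and 9.02 in control cells and 18.39 and 16.95 with NaBu, a 1.87-fold rise (edgeR adjusted p = 1.56e-06). *Usp28*, encoding a deubiquitinase that opposes it, rose 1.36-fold. *Pim1*, a kinase gene, and *Usp36*, a nucleolar deubiquitinase gene, were called higher by 1.19-fold and 1.14-fold, but with the GC trend removed their log2 fold changes were -0.05 and -0.11. The *Pim1* call was lost without NaBu 2 (edgeR adjusted p = 0.0932), and that of *Usp36* without control 2, NaBu 1 or NaBu 2 (edgeR adjusted p = 0.0859, 0.128 and 0.227). On the lower side, *Plk1* and *Aurka*, mitotic kinase genes whose products are known to stabilise Myc proteins, fell 8.03-fold and 4.76-fold. The part of cell cycle phase in the falls of *Plk1* and *Aurka* was not tested. The gene of CIP2A, an inhibitor of the phosphatase PP2A listed under an older symbol, fell 4.57-fold, and *Set*, another PP2A inhibitor gene, 2.6-fold. *Bin1*, encoding a Myc-binding protein, had an FPKM of 43.3 and 42.4 in control cells and 10.8 and 11.9 with NaBu, a 4.05-fold fall.

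**Figure D4:**
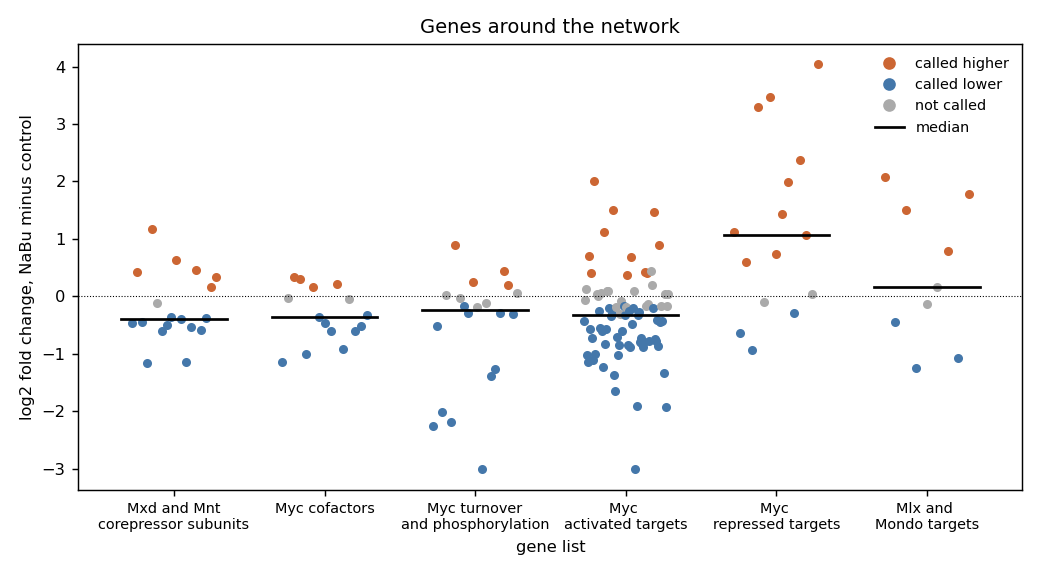
Log2 fold change, NaBu minus control, of every tested gene of 6 lists around the network, each gene a point coloured by its call, with the list median as a line. The medians of the corepressor, cofactor, turnover and activated target lists lie below 0, at -0.39, -0.36, -0.23 and -0.33, and that of the repressed targets above it, at 1.07. The last median includes *Cdkn1c*, *Cebpa* and *Pdgfrb*, which passed the filter on low counts through their NaBu libraries alone and raise it.

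Of 79 genes commonly given as activated by Myc, 11 rose (13.9%), 48 fell (60.8%) and 20 did not pass, against 34.5% higher and 34.1% lower over all tested genes. The median log2 fold change was -0.33, against 0.005 over all tested genes. *Utp20*, a gene of ribosome assembly, had an FPKM of 7.44 and 8.54 in control cells and 2.16 and 2.31 with NaBu. *Plk1*, which is also in the turnover list, fell 8.03-fold, *Plk4*, a centriole kinase gene, 3.72-fold, and *Mcm5* and *Mcm4*, subunits of the replicative helicase, 3.13-fold and 2.57-fold. *Mki67* fell 5.82-fold in the same libraries, and the part of cell cycle phase in the falls of this list was not tested. Genes of nucleolar and translation factors were among those that fell. *Npm1*, encoding nucleophosmin, went from an FPKM of 962.3 and 1139 to 616.2 and 597.9, and *Eif4a1*, an initiation factor gene, from 465.8 and 475.9 to 247.2 and 252, both named after their values were seen.

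Some targets rose with *Myc*. *Dusp2*, encoding a nuclear phosphatase of MAP kinases, rose 4-fold, and *Sord*, sorbitol dehydrogenase, 2.77-fold. *Hk2*, a hexokinase gene, rose 2.17-fold, from an FPKM of 41.0 and 33.8 to 86.1 and 87.0. *Ccnd2*, encoding cyclin D2, rose 1.62-fold and *Odc1*, the rate-limiting enzyme of polyamine synthesis, 1.6-fold, but neither passed the 1.5-fold null (glmTreat adjusted p = 0.0592 and 0.0928). *Odc1* had an FPKM of 82.9 and 90.0 in control cells and 151.5 and 144.3 with NaBu.

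Genes that Myc is known to repress formed the last list. Of 15 tested genes (16 listed), 10 rose (66.7%) and 3 fell (20%), against 34.5% and 34.1% of all tested genes. *Cdkn1c*, *Cebpa* and *Pdgfrb* passed the filter on low counts through their NaBu libraries alone, which favours a rise. Of the other 12 tested genes, 7 rose and 3 fell. Over all 15 the list median was 1.07 on the log2 scale. It is raised by *Cdkn1c*, *Cebpa* and *Pdgfrb*, whose log2 fold changes were 3.3, 3.47 and 4.04. *Klf2*, a factor of lymphocyte quiescence, had an FPKM of 8.14 and 6.8 in control cells and 44.4 and 38.2 with NaBu, a 5.17-fold rise (edgeR adjusted p = 2.45e-08). *Gadd45b*, a stress response gene, rose 3.98-fold, *Btg1*, an antiproliferative gene, 2.17-fold, *Ndrg1* 2.1-fold and *Foxo3*, a forkhead factor gene, 1.66-fold. The rise of *Foxo3* did not pass the 1.5-fold null (glmTreat adjusted p = 0.0607). Of the 3 that fell, *Cdkn1b*, encoding the inhibitor p27, fell 1.9-fold and *Ccng2*, encoding cyclin G2, 1.54-fold. The fall of *Ccng2* did not pass the 1.5-fold null (glmTreat adjusted p = 0.294). *Itgb1*, encoding the integrin beta 1 chain, had a log2 fold change of -0.29 ± 0.07 (edgeR adjusted p = 0.00537) and lost its call when NaBu 2 was left out (edgeR adjusted p = 0.106).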

How the data were processed

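Alignment was by Bowtie2 and quantification by RSEM on mm10, per the submitters' processing notes. Tool versions, library kit and strandedness: not given in the sources used here. The authors deposited, per the file headers, a transcript length, an expected count and an FPKM value for every gene. The FPKM table of the whole series differed from the sample files by at most 0. Levels are FPKM values as deposited, with 0 for genes that a file leaves out.

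The expected counts, rounded, were tested over the whole table in edgeR 4.0.16 (R 4.3.3) with TMM scaling, filterByExpr (12943 genes kept), a quasi-likelihood F test and Benjamini-Hochberg adjustment. The code was tested on simulated data. The 16 alternatives were other scalings (median of ratios; library totals), other filters (none; 5 CPM), limma 3.58.1 on log2(FPKM + 1), with and without a filter, and on log2(FPKM + 0.1), limma-voom, DESeq2 1.42.0, glmTreat, a replicate block, each library left out and removal of the GC trend. The last, a loess curve over 12397 genes, was added after seeing the data. A group reduced to 1 library is assumed to vary like the other group.

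Members and gene lists were chosen with earlier results of these data known, so no list was tested. All members and 4 partners are named, and in each list at most 5 called genes per direction, by size of change, whose higher group has a mean FPKM of at least 5. Some genes that the rule takes are left out. Other genes were named after their values were seen.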

Additional observations from a re-analysis of the deposited data

How the results depend on the processing

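The 10 network genes kept their direction under all 16 alternatives that could be fitted for each (13 for *Mycl*), except *Mxd4*, whose log2 fold change of -0.09 was 0.01 on library totals and in the 3 limma fits on FPKM. *Myc*, *Mycn*, *Max*, *Mxd1*, *Mxd3* and *Mnt* passed every one of these fits, with log2 fold changes of 0.65 to 0.87, -1.66 to -1.2, 0.8 to 0.94, 2.34 to 2.49, -2.52 to -1.96 and -1.35 to -0.57. *Mlx* missed only the 1.5-fold null, *Mxi1* missed 4 alternatives, among them no filter on low counts (adjusted p = 0.0507), and *Mycl* missed 6. The number of network genes called was 9 with the replicate number as a block, with library totals and with the GC trend removed, 8 with DESeq2 and 7 without a filter on low counts. Over all genes the calls were 8853 of 12943 with the block, 8895 of 12943 with library totals and 8892 of 12397 with the GC trend removed. They were 7615 of 12943 with DESeq2 and 8184 of 17504 without a filter. Deviations of same-numbered libraries from their group means had a correlation of -0.05 over genes. This cannot show whether the libraries were paired by animal or culture, which no label gives. The block moved the calls of all genes from 8884 to 8853. Against the 1.5-fold null the calls were 1 of the partners, 3 of the corepressor genes, 3 of the cofactors, 7 of the turnover genes, 29 of the activated targets and 3779 of all genes, fewer because the null is stricter. With the GC trend removed, which ranged from -0.44 to 1.87 on the log2 scale, the log2 fold change reversed for *Mga* (0.12), *Pim1* (-0.05) and *Usp36* (-0.11), and *Zbtb17* was called lower (-0.78). *Zbtb17* was also called lower with the block (adjusted p = 0.0328), and *Ep300* lost its call (adjusted p = 0.0663). On TMM-scaled CPM in place of FPKM, the log2 of NaBu over control moved from 0.07 to 0.45 for the summed repressors, from 0.66 to 0.18 for the ratio of Myc genes to repressors and from 0.74 to 0.63 for the summed Myc genes. This changes both the scaling between libraries and the division by length, and their parts were not separated. Library totals shifted the median over the whole table from 0.005 to 0.102 on the log2 scale, and directions are relative to the TMM scale. Depth limited *Mycl* alone among the network genes, with at most 18 counts.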

Other observations

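The mean transcript length that the files give per gene and library, which moves when the mix of a gene's transcripts moves, can vary only for *Myc*, *Mycl*, *Max*, *Mxi1* and *Mlx*, since 1 transcript was counted for each of the others. For *Max* it was 1988 and 1985 bases in the controls and 1984 and 1983 in NaBu. For *Mxi1* it was 5144 and 5146 bases in the controls and 5136 and 5147 in NaBu. The widest range was that of *Mlx*, with 1869 and 1857 bases in the controls and 1845 and 1877 in NaBu, a ratio of 1.02 between the longest and the shortest, and the groups overlapped. *Myc* stayed at 2398 bases in every library.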
